A study of Mus musculus with 56 samples.

Results

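Themis, Avpr1a and Ermp1 are 3 genes whose liver mRNA in mice given low-dose zalfermin and low-dose semaglutide together lay away from the sum of both low-dose effects. They are 3 of the 21935 genes in the count table. They were chosen by this departure from additivity (the low-dose interaction), so every value among DIO-MASH vehicle, both low-dose groups and the combination is given as a description without a test. Tests of the 3 genes are given only between the groups that did not enter the choice (chow, high-dose zalfermin and high-dose semaglutide) and for differences between mice within groups.

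Zalfermin mimics the metabolic hormone FGF21 with an extended half-life, and semaglutide activates the GLP-1 receptor. The animals were male C57BL/6J mice bought at 5 to 6 weeks of age, and liver RNA was sequenced from 56 of them, 8 in each of 7 groups. Chow vehicle mice ate regular chow, and the other 6 groups ate the AMLN diet, rich in fat, fructose and cholesterol, for 36 weeks before dosing and were selected by liver biopsy for steatosis and fibrosis (DIO-MASH, diet-induced obesity with metabolic dysfunction-associated steatohepatitis). Dosing was subcutaneous and daily for 8 weeks with vehicle, zalfermin at 0.05 mg/kg (low) or 0.2 mg/kg (high), semaglutide at 3 µg/kg (low) or 120 µg/kg (high), or 0.05 mg/kg zalfermin with 3 µg/kg semaglutide as separate injections. The labels name both drugs of the combination without doses, and the series record and the methods differ on them, the record pairing the high doses; the low doses of the methods are used here.

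Themis encodes a scaffold protein known from thymocytes, where it tunes signaling from the T cell receptor together with the phosphatases SHP1 and SHP2. Avpr1a encodes the vasopressin V1a receptor, a Gq-coupled receptor through which vasopressin raises calcium and stimulates glycogen breakdown in hepatocytes. Ermp1 encodes a membrane-bound metallopeptidase of the endoplasmic reticulum that belongs to the M28 family of zinc peptidases and has been linked to the unfolded protein response.

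In GENCODE M21 on GRCm38, Themis (ENSMUSG00000049109) lies on the plus strand at chr10:28668360-28883818, Avpr1a (ENSMUSG00000020123) on the plus strand at chr10:122448499-122453452, and Ermp1 (ENSMUSG00000046324) on the minus strand at chr19:29608214-29648415. All 3 are protein coding, and their longest coding transcripts have 6 exons (Themis), 2 exons (Avpr1a) and 15 exons (Ermp1). On the opposite strand, the pseudogene 4930519F09Rik shares 153 exonic bases with Themis, and Gm47834 and Gm48877 lie across Themis and Avpr1a without sharing an exonic base. Because strand use in the counting is not given in the sources used here, Themis reads over those bases cannot be assigned to one strand. The 3 genes are shown with the 250 bases before their first listed RefSeq start (GRCm38.p6), so that the windows of the 3 non-additive genes can be compared.
Themis, plus strand, chr10:28668110-28668359: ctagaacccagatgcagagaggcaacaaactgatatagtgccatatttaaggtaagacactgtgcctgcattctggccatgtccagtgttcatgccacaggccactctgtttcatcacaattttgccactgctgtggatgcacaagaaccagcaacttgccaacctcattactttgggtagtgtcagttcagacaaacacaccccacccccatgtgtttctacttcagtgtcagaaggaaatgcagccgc
Avpr1a, plus strand, chr10:122448249-122448498: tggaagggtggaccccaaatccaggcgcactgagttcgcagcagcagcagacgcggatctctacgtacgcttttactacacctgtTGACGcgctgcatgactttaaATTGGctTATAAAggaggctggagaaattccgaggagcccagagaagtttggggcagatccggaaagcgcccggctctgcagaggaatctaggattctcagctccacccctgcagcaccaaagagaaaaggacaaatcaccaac
Ermp1, minus strand, chr19:29648416-29648665: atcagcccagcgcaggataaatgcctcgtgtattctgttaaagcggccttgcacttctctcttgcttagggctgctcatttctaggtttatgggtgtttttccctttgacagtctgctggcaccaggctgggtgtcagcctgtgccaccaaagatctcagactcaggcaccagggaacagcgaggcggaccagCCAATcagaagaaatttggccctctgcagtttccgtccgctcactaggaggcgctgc
Sequences run 5′ to 3′ on the gene's strand. Capitals mark matches, on either strand, to one of 6 searched motifs, which do not overlap in these windows. The letters TATAAA of the TATA box occurred in 3504 of 27025 promoter windows of the same length, and here in the Avpr1a window alone, at 137 to 132 bases before the start. The letters CCAAT of the element of that name occurred in 34.5% of the windows, and here on the opposite strand of the Avpr1a window at 144 to 140 bases and in the Ermp1 window at 57 to 53 bases. A cyclic AMP response element half-site, searched as TGACG and present in 17.9% of the windows, stood in the Avpr1a window at 165 to 161 bases. No match was found in any of the 3 windows for the GC box, searched as GGGCGG (32.9% of all windows). The same held for the E-box, searched as CACGTG (6.05%), and for a nuclear receptor half-site, searched as AGGTCA (13.8%). The Themis window held none of the 6 motifs, so no motif was common to all 3 genes.

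The mice had 5228187 to 20885786 reads on genes, with a median of 12206788. Themis received 4 to 582 reads per mouse, Avpr1a 26 to 458 and Ermp1 196 to 2071, and all 3 were among the 14105 genes tested, which reached at least 5 reads in at least 3 mice. Values are given as CPM, a gene's reads per 1000000 reads of the mouse, scaled to edgeR's normalized library sizes and not corrected for gene length. In whole liver, fewer cells of a type and less RNA per cell cannot be told apart.

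Themis was abundant in untreated disease and low in chow-fed liver. DIO-MASH vehicle mice had between 19.8 and 47.9 CPM of Themis (median 32.05), and chow vehicle mice had between 0.615 and 11.3 CPM (median 1.54), so these groups did not overlap. Low-dose zalfermin mice ranged from 6.99 to 31.3 CPM (median 18.6), and low-dose semaglutide mice from 3.75 to 35.1 CPM (median 23.7). Both low-dose groups overlapped the DIO-MASH vehicle mice. In the combination, Themis was between 0.540 and 3.16 CPM (median 1.53), below every DIO-MASH vehicle mouse and every mouse of either low dose. High-dose zalfermin mice had 1.82 to 5.37 CPM (median 2.99) and high-dose semaglutide mice 8.06 to 22.8 CPM (median 12.1), and these groups did not overlap. The combination thus stood at the level of chow, while high-dose semaglutide stayed between chow and DIO-MASH vehicle.

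Avpr1a showed the opposite order, being low in untreated disease. DIO-MASH vehicle mice had 2.20 to 7.41 CPM of Avpr1a (median 5.34), and chow vehicle mice had 13.05 to 46.98 CPM (median 19.6). Low-dose zalfermin mice had 3.61 to 11.1 CPM (median 5.55), and low-dose semaglutide mice 3.14 to 14.3 CPM (median 5.89). The medians of both low doses lay within 1 CPM of DIO-MASH vehicle. All 8 combination mice lay above every DIO-MASH vehicle and low-dose mouse, with 18.7 to 48.1 CPM (median 23.1). High-dose zalfermin mice had 10.8 to 20.9 CPM (median 14.7), and high-dose semaglutide mice had 5.91 to 25.5 CPM (median 8.70). High-dose zalfermin mice were above every DIO-MASH vehicle mouse, whereas high-dose semaglutide mice overlapped them.

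Ermp1 was the most highly counted of the 3 genes and had the smallest relative range. DIO-MASH vehicle mice had 87.1 to 137.0 CPM of Ermp1 (median 111), and chow vehicle mice had 35.9 to 59.5 CPM (median 42.4). Low-dose zalfermin mice had 65.2 to 104 CPM (median 94.2), and low-dose semaglutide mice had 53.4 to 114 CPM (median 108). The combination lay between 35.1 and 57.1 CPM (median 49.5), below every DIO-MASH vehicle and low-dose zalfermin mouse. It overlapped low-dose semaglutide through mouse 6 of that group, at 53.4 CPM. High-dose zalfermin mice had 41.7 to 71.0 CPM (median 53.6) and high-dose semaglutide mice 65.1 to 104 CPM (median 81.4).

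**Figure D1:**
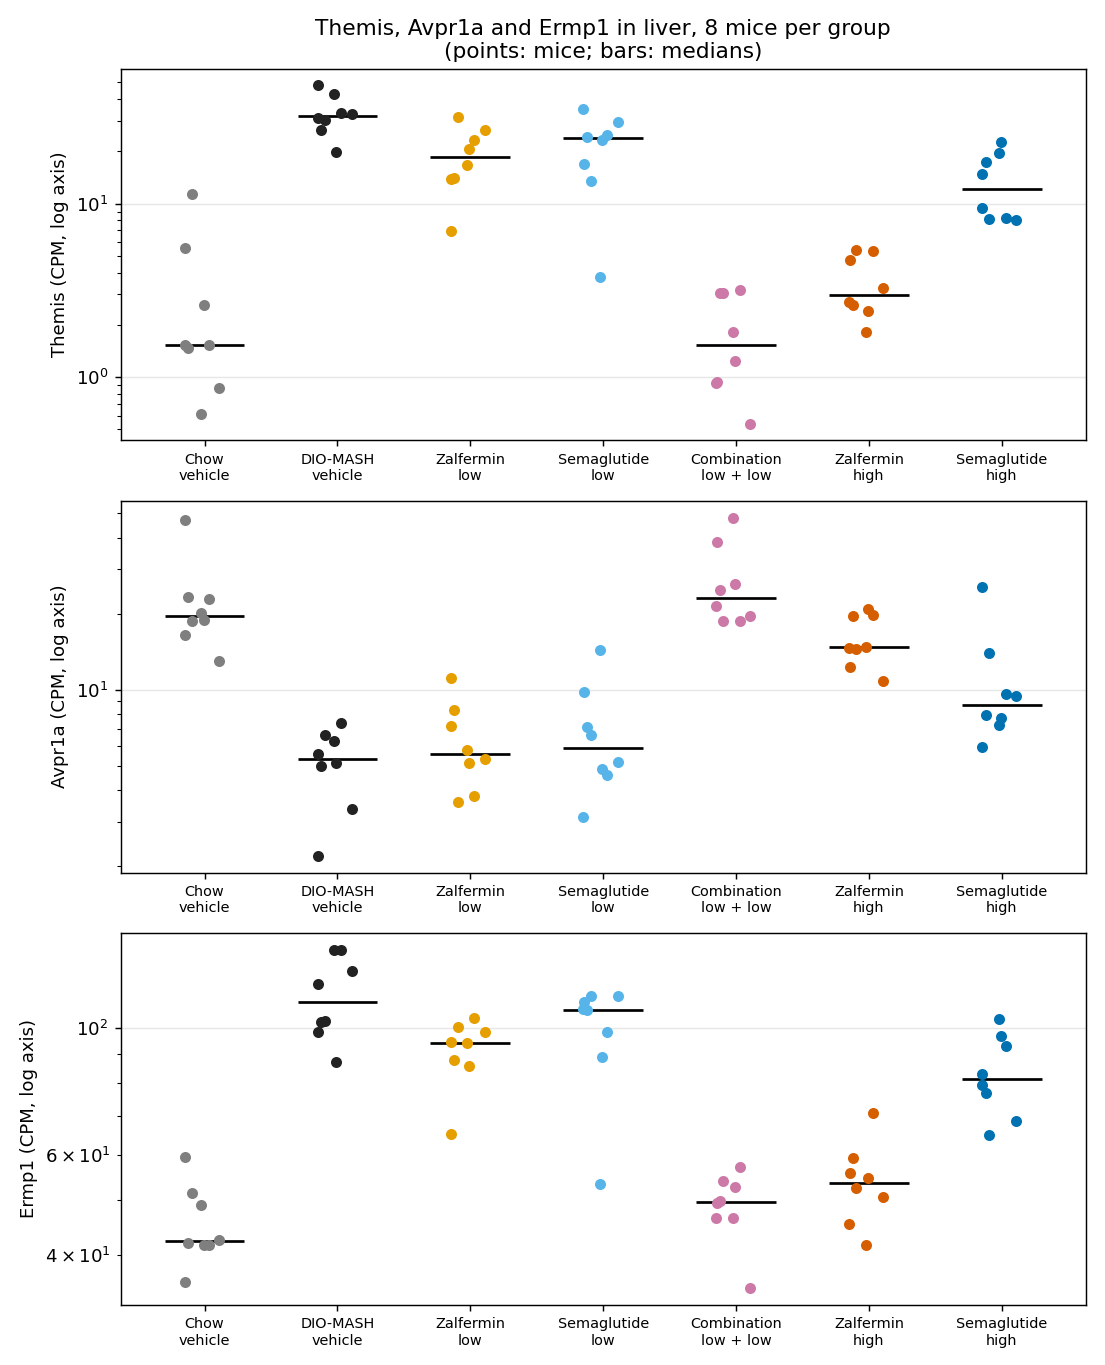
CPM of Themis, Avpr1a and Ermp1 (log axes) in each of 56 mice by group, with bars at group medians. In the combination, Themis and Ermp1 lay at the level of chow mice and far below most low-dose mice (Themis medians 1.53, 18.6 and 23.7 CPM), and Avpr1a lay above all low-dose mice.

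The counts of non-overlapping groups were set against all 14105 genes. All 3 members separated the combination from DIO-MASH vehicle, as did 3.98% of all genes, and all 3 separated it from low-dose zalfermin, as did 0.943%. Themis and Avpr1a, 2 of the 3, separated it from low-dose semaglutide, as did 0.340% of all genes. High-dose zalfermin and DIO-MASH vehicle were separated by all 3 members and by 4.80% of all genes. Chow and DIO-MASH vehicle were also separated by all 3 members, and by 2252 of the 14105 genes. Since DIO-MASH vehicle, the combination and the low doses were used to choose the genes, nothing is read from these shares.

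On the log2 scale, the group means of Themis ranked upward as combination, chow, both high doses (zalfermin below semaglutide), both low doses (zalfermin below semaglutide) and DIO-MASH vehicle. Only the step from high-dose zalfermin to high-dose semaglutide (1.87 on the log2 CPM scale) exceeded the larger SD of the neighbouring groups (0.620). For Ermp1 the order was the same except that chow lay below the combination, and again only the step from high-dose zalfermin to high-dose semaglutide (0.63) exceeded the larger SD (0.236). For Avpr1a the order ran upward from DIO-MASH vehicle through low-dose zalfermin, low-dose semaglutide, high-dose semaglutide, high-dose zalfermin and chow to the combination, and no step between neighbours exceeded the larger SD.

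The departure from additivity was computed as the log2 fold change of the combination minus the sum of both low-dose log2 fold changes, each against DIO-MASH vehicle. For Themis the low doses gave -0.78 ± 0.34 (zalfermin) and -0.62 ± 0.34 (semaglutide; SE, n = 8 per group), which sum to -1.39, and the combination gave -4.05 ± 0.41. The interaction was -2.65 ± 0.51, so that Themis was 6.29-fold lower than the summed log2 effects give. These folds are from the fitted values, and the group means of CPM, which give slightly other ratios, were 1.84 CPM observed and 12.6 CPM from the sum. For Avpr1a the low doses gave 0.27 ± 0.28 and 0.38 ± 0.28, their sum was 0.65, and the combination gave 2.34 ± 0.28. Its interaction of 1.68 ± 0.39 placed the combination 3.21-fold higher than the sum, with group means of 26.997 CPM observed and 8.16 CPM from the sum. For Ermp1 the low doses gave -0.32 ± 0.12 and -0.19 ± 0.12, their sum was -0.51, and the combination gave -1.21 ± 0.12. Its interaction of -0.71 ± 0.17 placed it 1.63-fold lower, with 48.9 CPM observed and 79.9 CPM from the sum.

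Adding the effects in CPM rather than in log2 left the 3 genes away from the sum in the same directions. The linear sum was 7.46 CPM for Themis, 8.04 CPM for Avpr1a and 76.9 CPM for Ermp1. Against it, the combination was 4.06-fold lower for Themis, 3.36-fold higher for Avpr1a and 1.57-fold lower for Ermp1. The scale therefore mattered most for Themis, whose distance from the sum was smaller in CPM.

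**Figure D2:**
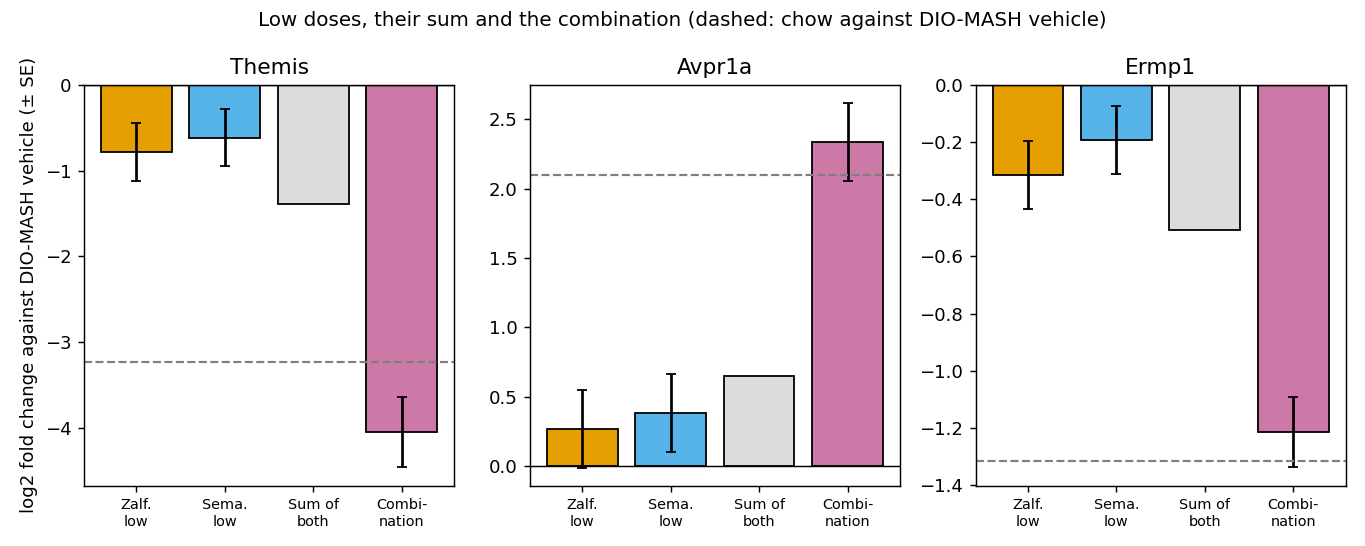
log2 fold change against DIO-MASH vehicle (bars, ± SE where fitted) of low-dose zalfermin, low-dose semaglutide, the sum of both and the combination, with the chow value dashed. The combination exceeded the sum for each gene (Themis -4.05 against -1.39) and reached or passed the chow line for Themis and Avpr1a.

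These values chose the genes, and they did not all stand at the same place in the table. In the fit of all 56 mice, 2 of 14105 genes (0.0142%) passed an adjusted p of 0.05 in the interaction, Cidea, a lipid droplet protein, with -3.46 ± 0.56, and Themis. Just outside came Cyp4a12b (-2.67 ± 0.59), Cyp4a12a (-2.38 ± 0.52) and Cyp39a1 (0.90 ± 0.20). The first 2 of these encode fatty acid hydroxylases of such similar sequence that their counts are uncertain, and Cyp39a1 encodes an oxysterol hydroxylase. Avpr1a followed at rank 6 and Ermp1 at rank 9 by p, so neither was called non-additive by this fit. All 3 members were among the 14 genes (0.179% of 7815 genes given an adjusted p) called by DESeq2, the tool of the study. All 3 were also among the 7 genes (0.0496%) called without mouse 6 of the low-dose semaglutide group. With the runs of label numbers as a covariate, Cidea alone was called, and Themis also lost its call without any of 8 single mice of the 4 groups. Because this contrast chose the 3 genes, these calls only place them among all genes and do not test them. In size, 15 of the 11875 genes with a mean of 1 CPM or more had a larger absolute interaction than Themis, 41 than Avpr1a and 293 than Ermp1. The median absolute interaction over those genes was 0.135.

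**Figure D3:**
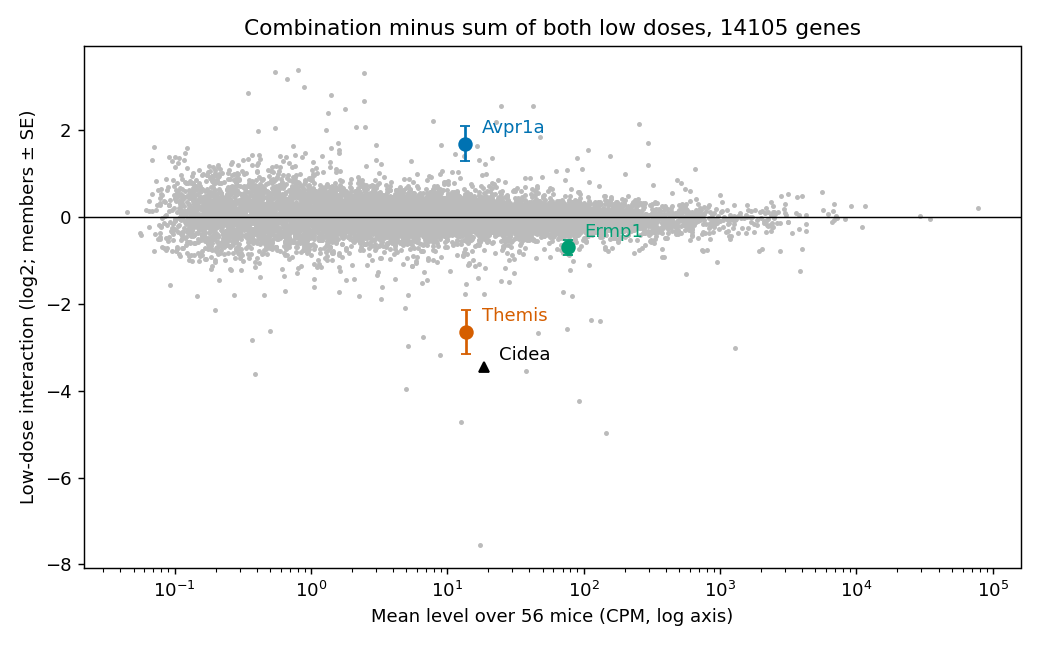
Low-dose interaction (log2) of 14105 genes against mean CPM over 56 mice (log axis), with the 3 members (± SE) and Cidea marked. Themis (-2.65) and Avpr1a (1.68) lie at the edge of the cloud, and Ermp1 (-0.71) lies nearer to it.

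The labels number the mice in 4 runs of numbers (22, 15, 16 and 3 mice), whose meaning is not given. Within the first 3 runs the interaction of Themis was -3.09, -1.43 and -2.71, that of Avpr1a was 2.04, 1.41 and 1.94, and that of Ermp1 was -0.97, -0.32 and -0.64. Each kept its direction within each of these runs, and the 3 mice of the fourth were too few for a value. These values come from the same mice that chose the genes, with as few as 2 of a group in a run. The kept direction is therefore no separate support.

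Relative to the distance between DIO-MASH vehicle and chow on the log2 scale, the combination covered 125% for Themis, 111% for Avpr1a and 92.3% for Ermp1. High-dose zalfermin covered 98.1%, 75.7% and 81.7%, and high-dose semaglutide 39.4%, 49.6% and 33.9%. At the low doses, zalfermin covered 24.1%, 12.9% and 23.998%, and semaglutide 19.03%, 18.2% and 14.7%. All these shares rest on the same 8 DIO-MASH vehicle and 8 chow mice. Against high-dose zalfermin, the combination had a log2 fold change of -0.88 ± 0.42 for Themis, 0.75 ± 0.26 for Avpr1a and -0.14 ± 0.12 for Ermp1, and the mice of both groups overlapped for each gene.

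Among groups that did not enter the choice, high-dose zalfermin and high-dose semaglutide were compared first. Themis was 3.72-fold lower under high-dose zalfermin (log2 fold change -1.90 ± 0.38, n = 8 per group, edgeR quasi-likelihood test, adjusted p = 0.00506), and the groups did not overlap, as for 0.156% of all genes. Ermp1 was 1.55-fold lower (-0.63 ± 0.12, edgeR adjusted p = 0.00408). Avpr1a did not pass (0.55 ± 0.27, edgeR adjusted p = 0.499), with a 95% interval from 1.01-fold to 2.12-fold higher under zalfermin. Thus 2 of 3 members were called, where 63 genes or 0.447% of all genes were (143 genes in DESeq2).

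Against chow, all 3 members differed under high-dose semaglutide. Themis was 3.89-fold higher than in chow (1.96 ± 0.38, edgeR adjusted p = 4.59e-05), and Ermp1 was 1.83-fold higher (0.87 ± 0.12, edgeR adjusted p = 1.42e-07). Avpr1a was 2.08-fold lower (-1.06 ± 0.27, edgeR adjusted p = 0.00132). These 3 of 3 calls stand beside 39.9% of all genes. Ermp1 alone did not overlap between these groups, as for 4.56% of all genes. Under high-dose zalfermin, none of the 3 passed against chow, at an unadjusted p below 0.05 or in DESeq2 (edgeR adjusted p = 0.921 for Themis, 0.126 for Avpr1a and 0.114 for Ermp1), where 37.2% of all genes did. The 95% intervals ran from 0.587-fold to 1.86-fold of chow for Themis, from 0.487-fold to 1.02-fold for Avpr1a and from 0.998-fold to 1.40-fold for Ermp1. The chow mice of Themis varied most, and without chow mouse 2, at 11.3 CPM, the log2 difference of high-dose zalfermin from chow was 0.74.

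Cell type markers moved in the same comparisons. Of all genes, 21.3% were called higher and 18.6% lower under high-dose semaglutide than in chow. For high-dose zalfermin against chow these shares were 19.7% and 17.6%, and between the high doses 0.447% of all genes were called. Between high-dose semaglutide and chow, 9 of 10 hepatocyte markers were lower, and their summed level was 78457 to 139720 CPM against 168170 to 256000 CPM. All 6 markers of monocyte-derived macrophages were higher, with summed levels of 115.5 to 688.5 CPM against 49.8 to 85.9 CPM. Of 7 stellate cell markers, Lrat (1.62 ± 0.20), Reln (1.49 ± 0.20), Pdgfrb (2.23 ± 0.29), Col1a1 (3.16 ± 0.41) and Col3a1 (2.74 ± 0.33) were higher and Acta2 (-0.95 ± 0.37) lower, with summed levels of 242.9 to 993.2 CPM against 87.5 to 178.2 CPM. T cell markers were higher in 8 of 13. Under high-dose zalfermin against chow, where no member passed, 6 of 10 hepatocyte markers were lower, and 12 of 13 T cell markers, 5 of 6 macrophage markers (all but Cd9) and the same 5 stellate cell markers were higher, and Acta2 lower (-1.38 ± 0.38). Between the high doses, Cps1 (0.80 ± 0.20) was the only gene of these 4 lists that passed in edgeR (DESeq2 called 1 as well). The B cell genes Cd79a (1.42 ± 0.56), Cd79b (1.10 ± 0.42), Ms4a1 (1.52 ± 0.58), Pax5 (1.51 ± 0.52) and Blk (1.07 ± 0.53) each had an unadjusted edgeR p below 0.05 there, and none passed in edgeR or DESeq2. Of these, Cd79a (-2.04 ± 0.56), Cd79b (-1.44 ± 0.42), Ms4a1 (-2.32 ± 0.58) and Pax5 (-2.03 ± 0.52) fell under high-dose semaglutide against DIO-MASH vehicle. The part of these cells in the member differences was not tested.

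**Figure D4:**
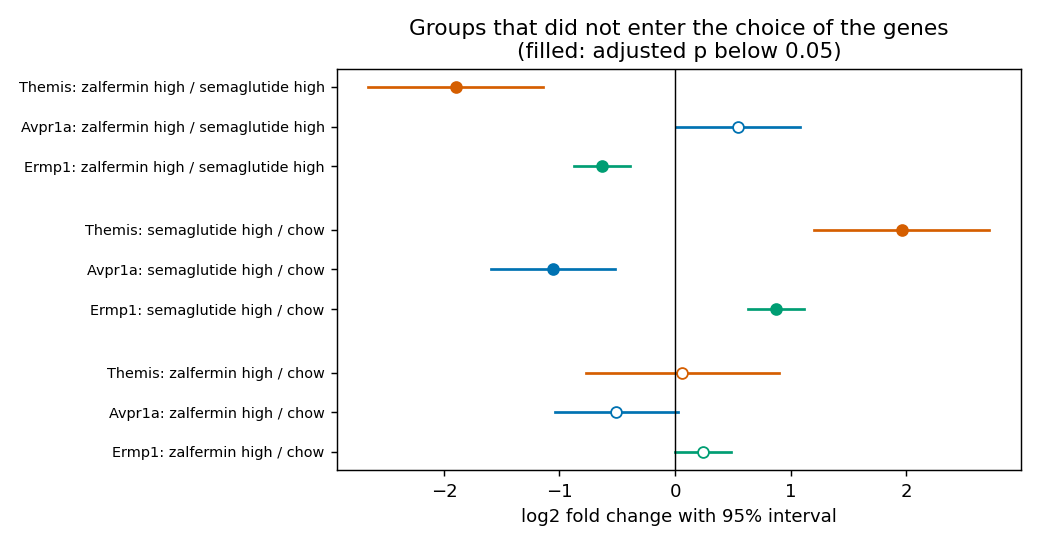
log2 fold change with 95% interval of each member between the 3 groups that did not enter the choice. Filled points, with adjusted p below 0.05, mark Themis and Ermp1 between both high doses (-1.90 and -0.63) and all 3 genes between high-dose semaglutide and chow.

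Within the first 3 runs of label numbers, the log2 difference of high-dose zalfermin from high-dose semaglutide was -1.34, -1.87 and -2.91 for Themis. For Ermp1 it was -0.62, -0.76 and -0.60, and for Avpr1a 0.49, 0.17 and 1.35. Against chow, high-dose semaglutide had 1.12, 3.73 and 3.35 for Themis and 0.82, 1.12 and 0.80 for Ermp1. For Avpr1a this difference was -1.65, 0.07 and -1.32, and the run with 0.07 held 1 chow mouse.

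Mice of the same group also differed in the 3 genes together. Mouse 6 of the low-dose semaglutide group had the lowest Themis (3.75 CPM), the highest Avpr1a (14.3 CPM) and the lowest Ermp1 (53.4 CPM) of its group. Mouse 1 of the low-dose zalfermin group likewise had the lowest Themis (6.99 CPM), the highest Avpr1a (11.1 CPM) and the lowest Ermp1 (65.2 CPM) of its group. Both lay toward the combination in all 3 genes. The study left a low-dose semaglutide mouse out of its RNA analysis, and the labels do not mark which one. Without mouse 6, the interaction of Avpr1a was 1.8997 and that of Ermp1 -0.80.

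The relations were then computed over all 56 mice after subtracting group means from log2 CPM, which removes the group differences that chose the genes. Themis and Ermp1 varied together (Pearson r = 0.666, permutation adjusted p = 4e-05, the smallest that 100000 permutations over 4 relations allow; Spearman rho = 0.598, permutation adjusted p = 8e-05), and both lay on the same side of their group means in 38 of 56 mice. Themis and Avpr1a varied in opposite directions (r = -0.448, permutation adjusted p = 0.00256, unadjusted 0.00128; rho = -0.483, permutation adjusted p = 0.00088), with opposite sides in 41 of 56 mice. Avpr1a and Ermp1 had r = -0.333 (permutation adjusted p = 0.0306) but rho = -0.229 (permutation adjusted p = 0.141). Without the 2 mice farthest from the median of the first gene, r was 0.604 for Themis and Ermp1, -0.398 for Themis and Avpr1a and -0.237 for Avpr1a and Ermp1. The last relation did not pass without those mice (permutation adjusted p = 0.0916), so its call depends on them. Centred on both group and run of label numbers, r was 0.699 for Themis and Ermp1 and -0.434 for Themis and Avpr1a. For Avpr1a and Ermp1 it was -0.376 (permutation adjusted p = 0.01045). Within the first 3 runs of label numbers, r was 0.794, 0.852 and 0.530 for Themis and Ermp1, and -0.741, -0.453 and -0.307 for Themis and Avpr1a. For Avpr1a and Ermp1 it was -0.574, -0.175 and 0.069.

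Because Themis is known from T cells, T cell markers were set beside it. Of 17 listed markers, 14 were in the table and 13 were tested. Their summed level was 5.89 to 31.4 CPM in DIO-MASH vehicle (median 15.0), 4.01 to 29.1 CPM in the combination (median 13.6) and 7.84 to 42.3 CPM under high-dose zalfermin (median 18.4). In chow it was 2.39 to 14.03 CPM (median 5.02), and no marker of the 14 was at 0 throughout a group. In the summed T cell markers, the combination and high-dose zalfermin mice overlapped DIO-MASH vehicle, and in Themis they did not. The Themis values of the combination and DIO-MASH vehicle entered the choice of the gene. The part of T cells in the values of Themis was not tested.

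Against DIO-MASH vehicle, 12 of the 13 tested T cell markers fell in chow (median log2 fold change -1.51, against -0.01 over all genes), where 55.4% of all genes were called. In the combination 0 of 13 passed in edgeR, 0 had an unadjusted p below 0.05 and 0 passed in DESeq2 (median -0.34), where 20.9% of all genes were called, and the smallest p values belonged to the adhesion receptor Cd2 (-0.76 ± 0.39, edgeR adjusted p = 0.159), the coreceptor Cd4 (-0.76 ± 0.39), Cd5 (-0.74 ± 0.43) and Thy1 (-0.43 ± 0.30). Under high-dose zalfermin 0 of 13 passed in edgeR, again 0 unadjusted and 0 in DESeq2 (median 0.14), where 17.2% of all genes were called. None of the 13 passed in edgeR or DESeq2 under high-dose semaglutide (median -0.35), low-dose zalfermin (-0.36) or low-dose semaglutide (-0.18), with 2, 1 and 0 at an unadjusted p below 0.05. Of all genes, 2.43%, 0.468% and 0% were called there; for low-dose semaglutide, 1222 genes had an unadjusted p below 0.05 and DESeq2 called 32.

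Per kilobase of annotated exon, the mean level of Themis in DIO-MASH vehicle (2.83 CPM per kilobase) was above that of each of the 14 T cell markers, of which Thy1 was highest (1.17). In the combination Themis was at 0.158 CPM per kilobase, below 8 of the 14 markers, whose median was 0.339. Under high-dose zalfermin it was at 0.302, below 8 of 14 (median 0.539), and in chow at 0.272, below 1 of 14 (median 0.107). Across mice, the group-centred relation of Themis with the mean log2 CPM of the 13 markers was r = 0.250 (permutation adjusted p = 0.0555; rho = 0.177, permutation adjusted p = 0.199). It was 0.265 without the 2 farthest mice, and 0.484, -0.032 and -0.210 within the first 3 runs of label numbers.

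**Figure D5:**
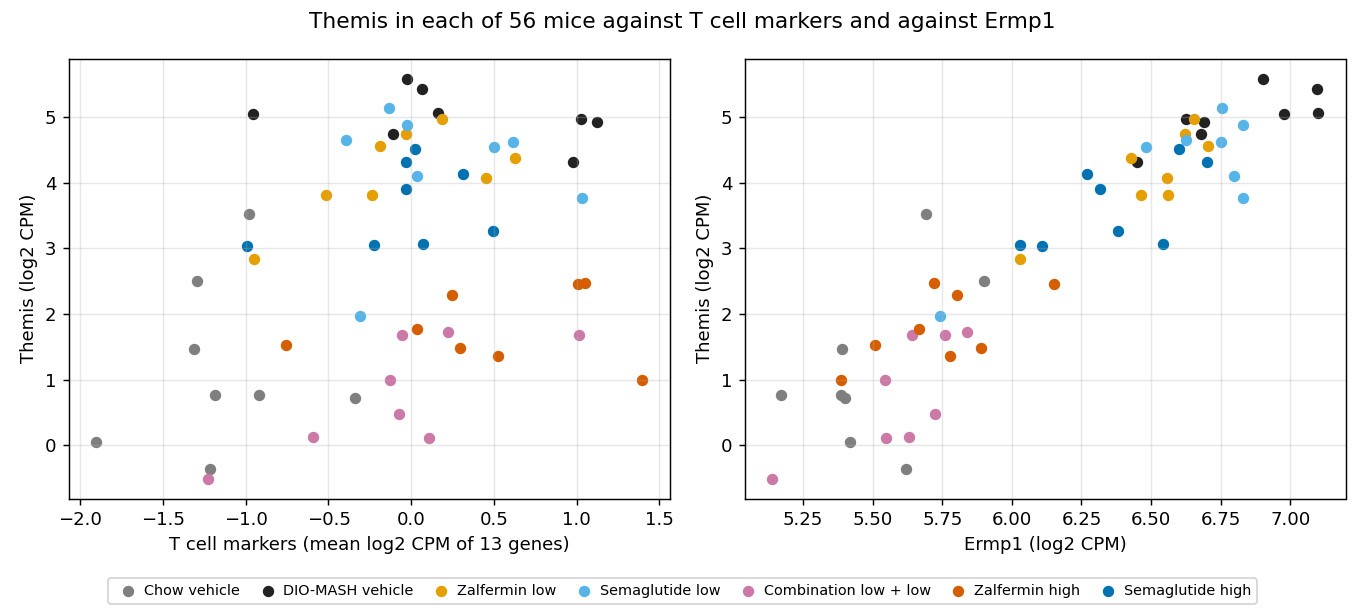
log2 CPM of Themis in each of 56 mice against the mean log2 CPM of 13 T cell markers (left) and against Ermp1 (right), colored by group. Combination and high-dose zalfermin mice spread over the marker range of the other DIO-MASH groups and were low in Themis. The part of T cells in this was not tested. The line-up of Themis and Ermp1 over all groups includes the group differences that chose the genes. Their group-centred r of 0.666 belongs to centred values, which are not shown here.

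Of 15 genes of the Themis family and of T cell receptor signaling, 14 were tested. In the combination 2 of them fell, Plcg1, a phospholipase C (-0.52 ± 0.10, edgeR adjusted p = 6.65e-05), and Ptpn6, which encodes SHP1 (-0.33 ± 0.10, edgeR adjusted p = 0.0109), where 20.9% of all genes were called and 10.9% were lower. The leukocyte phosphatase Ptprc (-0.66 ± 0.25, edgeR adjusted p = 0.0530) and the kinase Fyn (-0.30 ± 0.13) did not pass. Plcg1 (-0.44) and Ptpn6 (-0.29) also fell under high-dose zalfermin, where the kinase Zap70 rose (0.98). In chow 9 of the 14 were lower than in DIO-MASH vehicle and 3 higher (Zap70, Sos1 and Plcg1). The list median was -0.37 in the combination and -0.69 in chow.

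Around Avpr1a, its ligand and sister receptors were hardly read in liver. Avp and Avpr1b received no read in any mouse, and Oxt, Avpr2 and Oxtr were each at 0.0385 CPM per kilobase or less in every group mean. Avpr1a itself was at 1.95 CPM per kilobase in DIO-MASH vehicle, 8.46 in chow and 10.1 in the combination. The vasopressin-degrading aminopeptidase Lnpep, the only tested gene of the 6 in this list, did not pass (0.12 ± 0.25 in the combination, edgeR adjusted p = 0.766).

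Of 26 genes of the Gq and calcium pathway, all were tested, and in the combination 5 rose, 2 fell and 19 did not pass, beside 20.9% of all genes called. The inositol trisphosphate receptor Itpr2 rose (0.74 ± 0.11, edgeR adjusted p = 3.21e-06), as did the calcium pump Atp2a2 (0.48 ± 0.12) and the calcium sensor Stim1 (0.24 ± 0.06). The calcium channel Orai1 (0.37 ± 0.12) and the liver glycogen phosphorylase Pygl (0.36 ± 0.11) rose too. Rgs5, a brake on G protein signaling known from pericytes, fell (-1.02 ± 0.22, edgeR adjusted p = 0.000763), as did the phosphorylase kinase subunit Phkb (-0.33 ± 0.10). In chow 6 were higher and 9 lower than in DIO-MASH vehicle, a share near the 55.4% of all genes called there, and Itpr2 was higher there too (1.02). The list median was -0.12 in the combination, against -0.03 over all genes.

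Of 13 other receptors that mobilize calcium, 12 were tested. In the combination the α1B-adrenergic receptor Adra1b (0.45 ± 0.10, edgeR adjusted p = 0.000769) and the angiotensin receptor Agtr1a (0.36 ± 0.12, edgeR adjusted p = 0.0294) rose. The endothelin receptor Ednra (-0.68 ± 0.18, edgeR adjusted p = 0.00593) and the nucleotide receptor P2ry6 (-0.70 ± 0.25, edgeR adjusted p = 0.0385) fell, and 8 did not pass. Each of the 4 had the same sign in chow, and none passed in the interaction in edgeR. The log2 fold change of Avpr1a in the combination was 2.34, but this value entered the choice of the gene, so nothing is read from its distance to these receptors. Adra1b was at 9.34 CPM per kilobase in DIO-MASH vehicle and 12.8 in the combination, and Agtr1a at 19.4 and 24.8.

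Other M28 peptidases were set beside Ermp1. Of 6, 5 were tested and none passed in the combination in edgeR (3 at an unadjusted p below 0.05, 1 called by DESeq2), with a median of 0.06. The glutaminyl cyclases Qpctl (0.27 ± 0.10, edgeR adjusted p = 0.0539) and Qpct (0.29 ± 0.14), the glutamate carboxypeptidase Folh1 (-1.11 ± 0.44) and its relative Naalad2 (-0.50 ± 0.27) had the smallest p values. In chow 1 of the 5 was higher (Qpctl, 0.36) and 2 were lower than in DIO-MASH vehicle (Folh1, -3.13, and Naalad2, -1.88).

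Of 26 genes of the unfolded protein response, 8 rose, none fell and 18 did not pass in the combination (list median 0.31), where 20.9% of all genes were called. The translation-stress transcription factor Atf4 rose (0.61 ± 0.13, edgeR adjusted p = 0.000413), as did the degradation factor Edem1 (0.45 ± 0.12), the cochaperone Dnajc3 (0.35 ± 0.11) and the stress sensor Atf6 (0.32 ± 0.11). In chow 15 were higher and 1, Ddit3, lower than in DIO-MASH vehicle (list median 0.35). The share called was near the 55.4% of all genes called there, but of all genes 26.5% were higher and 28.9% lower. Under high-dose zalfermin Edem1 and Herpud1 rose and the kinase Eif2ak3 fell. Under high-dose semaglutide 0 of 26 passed in edgeR, with 1 at an unadjusted p below 0.05 and 0 in DESeq2.

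Cell type markers other than those of T cells moved with the combination too. Of 10 hepatocyte markers, 8 rose, among them Cps1 (1.33 ± 0.20), Fah (0.56 ± 0.09), Hnf4a (0.80 ± 0.14) and Alb (0.66 ± 0.14), and their summed level was 75329 to 97669 CPM in DIO-MASH vehicle and 99450 to 155190 CPM in the combination. Of 6 markers of monocyte-derived macrophages, 4 fell (Ccr2, -1.20 ± 0.28; Spp1, -1.37 ± 0.39; Cd9, -0.58 ± 0.17; Itgax, -1.04 ± 0.32), with summed levels of 324.7 to 713.5 CPM in DIO-MASH vehicle and 87.7 to 405.6 CPM in the combination. Of 7 stellate cell markers, 5 fell, led by the collagens Col3a1 (-2.33 ± 0.32) and Col1a1 (-2.15 ± 0.38), with Lrat (-0.67 ± 0.19), Reln (-0.65 ± 0.19) and Pdgfrb (-0.86 ± 0.27), and summed levels were 605.8 to 1131 CPM in DIO-MASH vehicle and 189.9 to 490.0 CPM in the combination. Of 6 Kupffer cell markers, 3 rose (Clec4f, 0.94 ± 0.32; Timd4, 1.47 ± 0.50; Marco, 2.62 ± 0.93), with summed levels of 145.3 to 454.2 CPM in DIO-MASH vehicle and 238.6 to 571.5 CPM in the combination.

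The remaining lists had at most 1 call each in the combination, where 20.9% of all genes were called. Of 7 NK cell markers none passed in edgeR, at an unadjusted p below 0.05 or in DESeq2, and summed levels were 3.65 to 10.7 CPM in DIO-MASH vehicle and 2.005 to 9.82 CPM in the combination. Of 6 sinusoidal endothelial markers, Fcgr2b fell (-0.30 ± 0.11), with summed levels of 179.5 to 247.4 CPM in DIO-MASH vehicle and 155.0 to 236.6 CPM in the combination. Of 6 cholangiocyte markers, Spp1, which the macrophage list also holds, fell, with summed levels of 193.6 to 594.4 CPM in DIO-MASH vehicle and 56.7 to 245.3 CPM in the combination. Spp1 alone had means of 350 CPM and 135 CPM in these groups, so it dominates the sums, and it also makes up much of the macrophage sums above. The other 5 cholangiocyte markers did not pass, among them Epcam (-0.52 ± 0.60) and Krt7 (-0.24 ± 0.42). The stellate and hepatocyte sums likewise rest largely on single genes, with means in DIO-MASH vehicle of 396 CPM for Col3a1, 271 CPM for Col1a1 and 53174 CPM for Alb. No marker of these lists was at 0 throughout either group, and no gene of any list passed in the interaction in edgeR. DESeq2 called Atf4 there, whose interaction in edgeR was 0.72. The part of these cell types in the values of Themis, Avpr1a and Ermp1 was not tested.

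The genes most like each member were ranked over the 56 mice among 11874 others with a mean of 1 CPM or more. By Spearman rho of CPM, the nearest to Themis were Ermp1 (0.918), the G protein subunit Gnai1 (0.894), the microtubule factor Haus8 (0.888), the lipid droplet protein Plin4 (0.882) and the neuronal adhesion protein Cntnap1 (0.873). The nearest to Ermp1 were Gnai1 (0.937), Themis (0.918), the lipid droplet proteins Cidea (0.908) and Cidec (0.902), and Plin4 (0.894). Themis and Ermp1 were thus each among the other's 5 nearest genes, and both had Gnai1 and Plin4. The nearest to Avpr1a were Cyp39a1 (0.871), Serpina3m (0.809), the biotinidase Btd (0.805), the peroxisomal lyase Hacl1 (0.803) and Nrbp2 (0.803). Avpr1a itself had a rho of -0.878 with Themis and -0.807 with Ermp1. These likenesses over all mice include the group differences, which the choice of the genes used.

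Gnai1, among the nearest to both Themis and Ermp1, was at a mean of 28.03 CPM in DIO-MASH vehicle, 6.05 in the combination, 6.35 under high-dose zalfermin, 15.1 under high-dose semaglutide and 5.65 in chow. Cyp39a1, nearest to Avpr1a, was at 21.04 CPM in DIO-MASH vehicle, 66.3 in the combination, 45.5 under high-dose zalfermin, 29.5 under high-dose semaglutide and 64.6 in chow.

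After group means were removed, other genes came nearest to Themis, namely the fatty acid translocase Cd36 (Pearson r = 0.752), Vwa5a (0.733) and the leukocyte protein Plek (0.712). Nearest to Ermp1 were Ttc3 (0.760), Gnai1 (0.747) and the collagen glycosyltransferase Colgalt1 (0.726). Nearest to Avpr1a were the vitamin C synthesis enzyme Gulo (0.585), the sulfotransferase Sult1a1 (0.560) and Cyp39a1 (0.552). Gnai1 and Cyp39a1 were the genes that stood near the same member on both measures.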

How the data were processed

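Liver RNA of 56 mice was measured by RNA-seq, and the authors deposited 1 table of raw read counts for 21935 genes, without normalization. Per the methods, mRNA libraries were stranded, and STAR aligned the reads to GRCm38; the submitters' processing notes list Trim Galore 0.6.4 and Salmon 1.9.0. The counting program is not given in the sources used here. Groups came from the sample labels, and all 56 mice were used, because the low-dose semaglutide mouse that the study excluded is not marked in the labels. Replicates were numbered in accession order. No columns of counts were identical.

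The 14105 genes reaching 5 reads in at least 3 mice were fitted in edgeR 4.0.16 (R 4.3.3) with TMM normalization and 1 quasi-likelihood model of 7 groups, with Benjamini-Hochberg adjustment over all genes and a threshold of 0.05. Log2 CPM used a prior count of 2. Each library was from 1 mouse, and DIO-MASH mice were housed singly after biopsy. Relations used 100000 permutations within groups, two-sided, adjusted over 4 relations. DESeq2 1.42.0, its size factors, other filters, the number series, only the groups compared, and each mouse left out in turn were the alternatives. Steps were tested on simulated counts. The members and lists were chosen with earlier results of these data known. Beside the members, the genes named were those past the threshold in the interaction and the 3 next to it, the 5 and 3 genes most like each member, and up to 4 genes per list with the smallest p in the combination; Adra1b, Agtr1a, Avp, Avpr1b, Avpr2, Oxt and Oxtr levels per kilobase, the markers named between high-dose groups and chow, and Atf4 in the DESeq2 interaction, Ddit3, Eif2ak3, Herpud1, Orai1, Pdgfrb, Phkb, Pygl, Sos1 and Zap70, were added after their values were seen. The B cell marker list is not reported as a whole here.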

Additional observations from a re-analysis of the deposited data

Results flagged for a closer look

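In 5 of the 21 sets of 8 mice (3 genes in 7 groups), the mouse at one end lay far from the others on the log2 CPM scale, judged by its gap to the nearest mouse divided by the range of the group; chance gives this in about 1 in 20 sets. Mouse 6 of the low-dose semaglutide group was low in Themis (3.75 CPM, ratio 0.569) and in Ermp1 (53.4 CPM, ratio 0.678). Mouse 1 of the low-dose zalfermin group was low in Ermp1 (65.2 CPM, ratio 0.586). Mouse 1 of the chow group was high in Avpr1a (46.98 CPM, ratio 0.546). Mouse 3 of the combination was low in Ermp1 (35.1 CPM, ratio 0.579), and it also had the lowest Themis of its group.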

How the results depend on the processing

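The departures of the 3 genes kept their direction under all alternatives: with each mouse left out in turn, the interaction ran from -2.83 to -2.51 for Themis, 1.52 to 1.8997 for Avpr1a and -0.80 to -0.64 for Ermp1. All alternatives reuse the mice that chose the genes, so the kept direction is no separate support. The number of genes past the threshold in the interaction did not keep: it was 14 in DESeq2, 4 when only the 4 groups were fitted and 1 with the runs of label numbers as a covariate, and it ran from 1 (among others without DIO-MASH vehicle mouse 7) to 7 (without low-dose semaglutide mouse 6). It moved by over 1.5 times without any of 11 mice, which also included low-dose zalfermin mice 2 and 3, low-dose semaglutide mice 1 and 3 and combination mice 1, 3, 5, 7 and 8. Themis was not called with the covariate or without any of 8 of these mice (DIO-MASH vehicle 7, low-dose zalfermin 2 and 3, low-dose semaglutide 1 and 3, combination 1, 3 and 7). Between the high doses, the count of 63 genes became 143 in DESeq2 and ran from 25 (without high-dose semaglutide mouse 7) to 119 (without mouse 3 of that group). It moved by over 1.5 times also without high-dose zalfermin mouse 1, 2 or 6, high-dose semaglutide mouse 6 or 8, or low-dose semaglutide mouse 6. There, Themis ran from -2.02 to -1.75 (edgeR adjusted p at most 0.0276) and Ermp1 from -0.70 to -0.58 (at most 0.0159).

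Against chow, the small difference of Themis under high-dose zalfermin was -0.0101 with the covariate and ran from -0.11 (without chow mouse 6) to 0.74 (without chow mouse 2), with a negative sign without any of chow mice 1, 3, 4, 6 and 8 and high-dose zalfermin mice 2, 4 and 5, and that of Ermp1 ran from 0.17 to 0.31, passing without chow mouse 5 (edgeR adjusted p = 0.0478). Within the runs of label numbers with 15 and 16 mice, no relation passed: r was -0.453 and -0.307 for Themis and Avpr1a, 0.852 and 0.530 for Themis and Ermp1, -0.175 and 0.0685 for Avpr1a and Ermp1, and -0.0322 and -0.210 for T cell markers and Themis. Inside a run, the permutations could exchange only the few mice of each group, so not passing there says little. Avpr1a and Ermp1 also did not pass within the run of 22 mice (-0.574) or without the 2 farthest mice (-0.237). The cause of these changes was not tested. The labels give the groups no shared replicate numbers; their consecutive numbers pass through the groups in incomplete sets of unstated meaning, and no fit with such sets as a block was run. Themis had as few as 4 reads in a mouse, which limits the precision of its lowest levels.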
